A study of Sus scrofa with 18 samples.

Results

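Genes that mark or sustain microglia were followed through the developing brain of the pig: IL34, CSF1R, CX3CR1, P2RY12, TREM2, TYROBP, AIF1, C1QA, C1QB and C1QC. These 10 were chosen by name from the deposited table of counts per gene. All 10 were found among its 31908 genes, and all 10 were among the 16325 genes that passed the filter on low counts. Messenger RNA of whole fetal brains was sequenced at 3 ages, gestation day (GD) 45, GD60 and GD90. Each age had 3 females and 3 males, so that 18 libraries formed 6 groups of sex and day. The dams were Landrace by Large White gilts bred to the LR-M6 line by artificial insemination, no treatment of them is described, and no brain region was separated from another. On each day the 3 females and the 3 males came in pairs with the same litter size, but the labels do not name the dam.

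Microglia are the resident macrophages of the brain. They descend from early myeloid precursors that enter the brain during embryonic life, and they divide and spread through it before birth. Their survival depends on the receptor CSF1R, which is bound by the cytokines CSF1 and IL34, the second of which is made in the brain mainly by neurons. CX3CR1 and P2RY12 are surface receptors with which microglia sense fractalkine and nucleotides, TREM2 senses lipids through its adaptor TYROBP, AIF1 (also called IBA1) is a cytosolic calcium-binding protein, and C1QA, C1QB and C1QC encode the chains of complement C1q, which microglia secrete and which tags synapses for removal. Most of these genes are shared by microglia and the macrophages of vessels and meninges, and P2RY12 is the one that largely separates them.

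Library totals ranged from 15118843 to 19729783 counts, and a member had between 18 and 1552 counts in a library, so no member was at 0 anywhere. Levels are given as CPM, the count scaled to the library total, and fold changes are log2 values from a model of all genes. Male GD45 replicate 17 stood apart: its scaling factor in that model was 0.849, against 0.943 to 1.07 in the other libraries, which raises its values by 0.24 on the log2 scale relative to plain CPM. Its litter of 8 also had the lightest brains of that day, with values of 0.713 and 0.665 against 1.55 to 1.86 in the other GD45 fetuses. The labels give the unit as mg, which is doubtful for a whole brain, so these values serve only to compare the brains with each other. Results that rest on GD45 are therefore also given without it where a call changes.

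The genes C1QA, C1QC and C1QB lie next to each other on the plus strand of chromosome 6, between bases 80586280 and 80607471 of Sscrofa11.1, and varied together in these brains. Their promoter windows are shown because the 3 genes encode parts of the same protein. The windows of TREM2 and TYROBP are shown beside them because TYROBP is the adaptor of TREM2. Each window covers 250 bases before and 50 bases after the gene start that RefSeq gives on Sscrofa11.1, is written 5′ to 3′ on the strand of the gene, and has matches to GAGGAA or its reverse complement TTCCTC in capitals. These letters are the core of the motif of PU.1 (SPI1), a transcription factor of myeloid cells.

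C1QA, chr6:80586009-80586308, plus strand: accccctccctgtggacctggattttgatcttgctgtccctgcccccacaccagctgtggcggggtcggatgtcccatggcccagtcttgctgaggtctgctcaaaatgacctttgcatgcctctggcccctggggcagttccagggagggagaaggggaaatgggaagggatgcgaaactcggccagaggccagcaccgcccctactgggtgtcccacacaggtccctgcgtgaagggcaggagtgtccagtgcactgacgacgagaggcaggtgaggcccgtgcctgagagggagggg
C1QC, chr6:80592341-80592640, plus strand: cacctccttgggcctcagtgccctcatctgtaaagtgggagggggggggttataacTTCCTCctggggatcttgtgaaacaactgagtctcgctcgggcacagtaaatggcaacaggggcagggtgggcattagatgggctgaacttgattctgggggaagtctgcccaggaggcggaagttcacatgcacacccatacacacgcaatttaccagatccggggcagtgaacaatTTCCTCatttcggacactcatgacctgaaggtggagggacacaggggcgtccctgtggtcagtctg
C1QB, chr6:80601430-80601729, plus strand: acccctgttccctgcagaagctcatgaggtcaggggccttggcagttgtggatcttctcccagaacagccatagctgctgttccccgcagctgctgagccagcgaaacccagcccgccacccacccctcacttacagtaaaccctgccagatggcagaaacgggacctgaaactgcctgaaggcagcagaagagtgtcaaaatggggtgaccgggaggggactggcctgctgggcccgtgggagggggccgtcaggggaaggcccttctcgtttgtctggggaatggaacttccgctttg
TREM2, chr7:36471460-36471759, minus strand: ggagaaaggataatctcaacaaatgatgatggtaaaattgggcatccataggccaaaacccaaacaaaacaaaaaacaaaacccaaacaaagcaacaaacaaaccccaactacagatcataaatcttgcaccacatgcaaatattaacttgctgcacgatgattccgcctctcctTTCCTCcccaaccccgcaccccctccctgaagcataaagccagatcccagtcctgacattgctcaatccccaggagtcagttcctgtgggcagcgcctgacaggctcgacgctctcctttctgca
TYROBP, chr6:45312513-45312812, minus strand: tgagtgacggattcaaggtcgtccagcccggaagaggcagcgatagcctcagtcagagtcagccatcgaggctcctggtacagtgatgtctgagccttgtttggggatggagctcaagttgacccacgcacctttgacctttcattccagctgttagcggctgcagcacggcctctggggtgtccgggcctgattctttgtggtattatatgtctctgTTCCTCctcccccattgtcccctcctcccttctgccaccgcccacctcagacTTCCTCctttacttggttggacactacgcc

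A match on either strand was present in 4 of the 10 member windows, those of AIF1, TREM2, TYROBP and C1QC. Of the 20664 windows of protein-coding genes read in the same way, 26.1% held one. C1QC had 2 matches, at bases -194 to -189 and -16 to -11 from its start, and the windows of C1QA and C1QB had none of these letters. TREM2 had 1 match, at -75 to -70, and TYROBP had 2, at -32 to -27 and 21 to 26. The RefSeq starts of these genes lay within 25 bases of those of the gene table for C1QA, C1QB, TREM2 and TYROBP, and 113 bases downstream for C1QC. The window of CSF1R was not printed, since its RefSeq start lay 17323 bases inside the gene of the deposited table.

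The largest part of the change came in the later period, GD60 to GD90, which also spans more days than GD45 to GD60. Changes are given per period and not per day. From GD60 to GD90, 8 of the 10 members rose and none fell, where 21.4% of all tested genes rose and 20.9% fell. Their median log2 change was 0.65, against -0.01 over all genes. From GD45 to GD60, 2 members rose (CX3CR1 and TREM2) and none fell, where 9.35% of all tested genes rose, and the median of the members was 0.19. Over the whole span, GD90 against GD45, 9 of 10 members rose, where 28.3% of all genes rose, and the remaining member was TYROBP. These comparisons share libraries, since GD60 serves in the 2 shorter ones and each end in the long one. The summed CPM of the 9 members other than IL34 was 123 ± 17.6 at GD45, 137 ± 16.0 at GD60 and 227 ± 32.7 at GD90 (SD, n = 6 each). In whole tissue, more microglia and more RNA per microglial cell cannot be told apart.

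**Figure D1:**
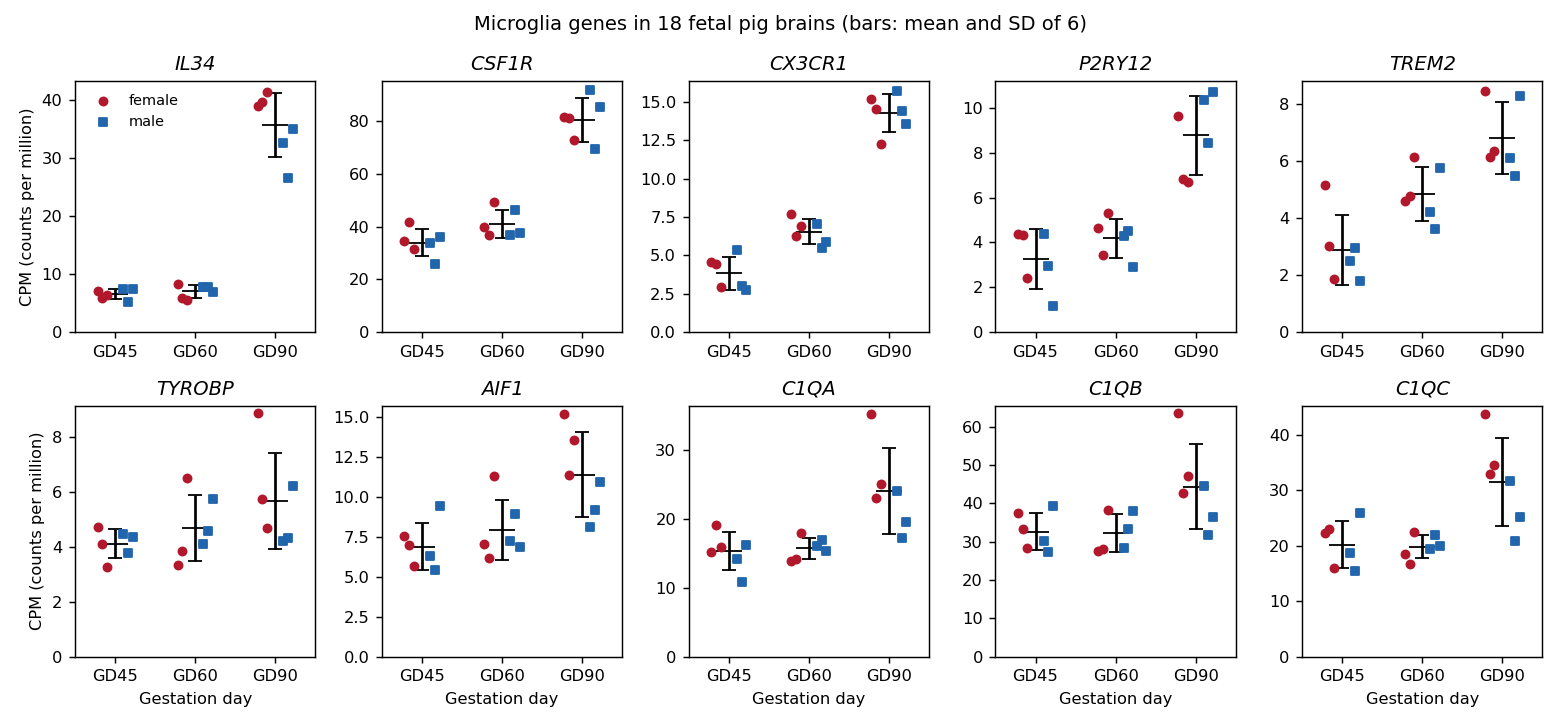
CPM of each gene (y axis, from 0, a scale of its own per gene) in each of the 18 libraries by gestation day, females as circles and males as squares, with the mean and SD of the 6 libraries of a day. IL34, CSF1R, CX3CR1 and P2RY12 at GD90 lie clear of both earlier days, while the GD90 values of TREM2, TYROBP, AIF1 and the C1q genes reach down into the range of GD60.

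**Figure D2:**
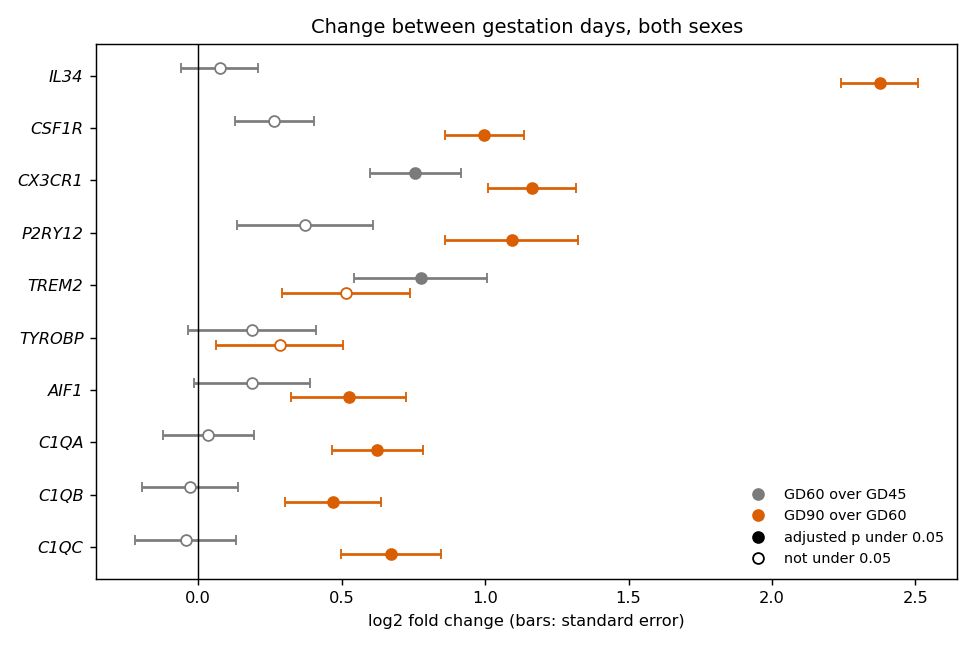
Log2 fold change of each gene over both sexes (x axis) with its standard error, for GD60 over GD45 in grey and GD90 over GD60 in orange. Filled points had an adjusted p under 0.05: CX3CR1 and TREM2 in the earlier period, and every gene but TREM2 and TYROBP in the later one.

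IL34, the ligand, lies on the plus strand of chromosome 6 from base 13588775 to 13678738. Its level had a lowest, median and highest value of 5.22, 6.74 and 7.38 CPM at GD45, of 5.58, 7.29 and 8.31 CPM at GD60, and of 26.6, 37.0 and 41.4 CPM at GD90. The first 2 days overlapped over most of their range, and the lowest GD90 library stood far above the highest of the earlier ones. The log2 change from GD60 to GD90 was 2.38 ± 0.13 (SE), with an adjusted p of 1.35e-09 in edgeR's quasi-likelihood test, and that from GD45 to GD60 was 0.08 ± 0.13, with an adjusted p of 0.751. The rise passed the test in females (log2 change 2.70 ± 0.19) and in males (2.06 ± 0.19). IL34 was the member with the largest change of the period.

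Exons at the 3′ end of IL34 share 2097 bases with exons of MTSS2, a gene of the opposite strand that had 76092 counts in all. Whether the counting used strand is not given in the sources used here, so IL34 was counted again on its exons that share no base with MTSS2. On these exons it had 2.79 ± 0.60 CPM at GD45, 2.86 ± 0.65 at GD60 and 16.7 ± 3.49 at GD90 (SD, n = 6 each). The ratio of the GD90 to the GD60 mean was 5.86 on these exons and 5.10 on the whole gene, where that of MTSS2 was 1.27. The sixth, seventh and ninth exons in 5′ to 3′ order held most of these counts, with 58, 32 and 148 counts at GD60 and 294, 225 and 869 at GD90, summed over 6 libraries. Scaled to the library totals, 8 of the 9 exons with at least 20 counts over both days were higher at GD90 than at GD60. Exons 4, 5, 6, 7 and 9 had ratios of 5.28 to 9.59. The 2 large exons that share bases with MTSS2 had ratios of 1.94 and 1.72, and the eleventh and thirteenth, which share none and had 12 and 13 counts at GD60, had ratios of 1.39 and 0.721.

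**Figure D3:**
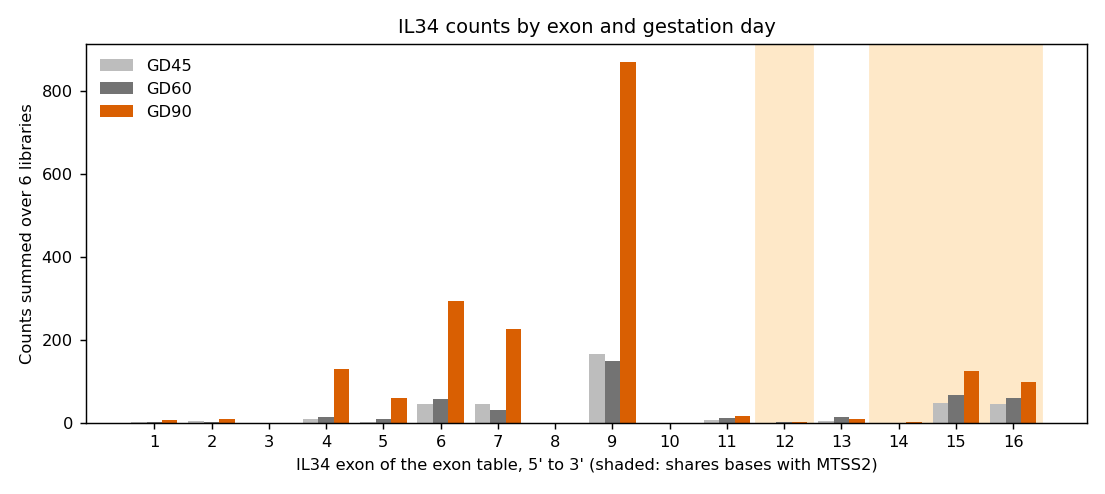
Counts of each IL34 exon of the exon table (x axis, numbered 5′ to 3′) summed over the 6 libraries of a gestation day (y axis), with exons that share bases with MTSS2 shaded. Exons 4 to 9 that hold reads have the largest ratios of GD90 to GD60, with 148 and 869 counts in exon 9, the shaded exons 15 and 16 have smaller ones (1.94 and 1.72), and exon 13 is lower at GD90 (0.721).

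CSF1R, the receptor for IL34 and CSF1, lies on the minus strand of chromosome 2 from base 151102138 to 151147634. Its level was 25.97 at the lowest, 34.3 at the median and 41.9 CPM at the highest at GD45, 36.8, 38.7 and 49.3 CPM at GD60, and 69.4, 81.5 and 92.0 CPM at GD90. The GD90 libraries were all above those of both earlier days, which overlapped each other. The log2 change was 1.00 ± 0.14 (SE) from GD60 to GD90, with an adjusted p of 2.20e-05, and 0.27 ± 0.14 from GD45 to GD60, with an adjusted p of 0.205. Without male GD45 replicate 17 the earlier change was 0.36, with an adjusted p of 0.0453. The exon table holds 35.7% of its gene-level counts. Of its exons with at least 20 counts there over GD60 and GD90, 17 of 17 had a higher level at GD90 than at GD60, with ratios from 1.04 to 3.82 and a median of 2.15. The other ligand of the receptor, CSF1, had 19.0 ± 2.95 CPM at GD60 and 14.2 ± 2.87 at GD90 (SD, n = 6 each), a log2 change of -0.38 ± 0.16 (SE) that did not pass the test (adjusted p = 0.0723).

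CX3CR1, the fractalkine receptor, on the minus strand of chromosome 13 from base 23944369 to 23957486, was the member that rose in both periods. It had 2.77 at the lowest, 3.72 at the median and 5.33 CPM at the highest at GD45, 5.46, 6.59 and 7.68 CPM at GD60, and 12.2, 14.5 and 15.7 CPM at GD90. No library of a day reached those of the next day. The log2 change was 0.76 ± 0.16 (SE) in the earlier and 1.16 ± 0.15 in the later period, with adjusted p of 0.00327 and 1.39e-05. Its count came almost all from the large second exon, with 398, 651 and 1375 counts over the 6 libraries of GD45, GD60 and GD90, while the first exon of 71 bases held 1 count in all. The gene of its ligand, CX3CL1, was not analysed here.

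P2RY12, a receptor for ADP that microglia carry and other brain macrophages largely lack, lies on the minus strand of chromosome 13 from base 91427197 to 91572170. It had 1.19 at the lowest, 3.63 at the median and 4.40 CPM at the highest at GD45, 2.90, 4.39 and 5.32 CPM at GD60, and 6.67, 9.04 and 10.7 CPM at GD90. GD45 and GD60 overlapped, the value of 1.19 belonged to male replicate 17, and the GD90 libraries were all higher. The log2 change was 1.09 ± 0.23 (SE) from GD60 to GD90, with an adjusted p of 0.00118, and 0.37 ± 0.24 from GD45 to GD60, with an adjusted p of 0.316. P2RY12 shares 84 exon bases with MED12L on the opposite strand, which had 9.01 ± 3.29 CPM at GD60 and 13.8 ± 3.31 at GD90 (SD, n = 6 each), and the part of these bases in the result was not tested. Platelets also carry P2RY12. Of 7 platelet and megakaryocyte genes 6 were in the file and 3 were tested, of which GP9 rose and TUBB1 fell from GD60 to GD90. The summed level of the 6 was 61.1 to 95.5 CPM at GD60 and 50.4 to 79.1 CPM at GD90, of which ITGA2B alone made 74.9 ± 17.1 and 58.2 ± 11.0 CPM (SD, n = 6 each). GP9, which had 3.35 ± 0.575 CPM at GD60 and 5.15 ± 1.05 at GD90, went the other way from that sum. GP1BB was at 0 in all 18 libraries and GP1BA had 24 counts in all.

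TREM2 is a lipid-sensing receptor on the minus strand of chromosome 7, from base 36464034 to 36471516. Its values ran from 1.78 over a median of 2.71 to 5.15 CPM at GD45, from 3.62 over 4.68 to 6.13 CPM at GD60, and from 5.48 over 6.23 to 8.45 CPM at GD90. Neighbouring days overlapped, and GD90 lay wholly above GD45. The log2 change was 0.78 ± 0.23 (SE) from GD45 to GD60, with an adjusted p of 0.0298, 0.52 ± 0.22 from GD60 to GD90, with an adjusted p of 0.0745, and 1.29 ± 0.23 over the whole span, with an adjusted p of 0.000155. The earlier call was lost without female GD45 replicate 13 (adjusted p = 0.0661), female GD45 replicate 18 (0.0609), male GD45 replicate 11 (0.0547), female GD60 replicate 15 (0.0641) or male GD60 replicate 16 (0.0847), and with both libraries of the litter of 8 left out (0.0802), which was chosen after seeing the data. The later change passed the test without female GD45 replicate 12 (adjusted p = 0.0412), female GD45 replicate 18 (0.0411) or male GD60 replicate 16 (0.0411), so the period in which TREM2 rose depended on single libraries.

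TYROBP, the adaptor through which TREM2 signals, lies on the minus strand of chromosome 6 from base 45309197 to 45312537. It ran from 3.27 over a median of 4.22 to 4.74 CPM at GD45, from 3.34 over 4.33 to 6.49 CPM at GD60, and from 4.21 over 5.20 to 8.85 CPM at GD90. The 3 days overlapped. The log2 change was 0.19 ± 0.22 (SE) in the earlier period, 0.28 ± 0.22 in the later one and 0.47 ± 0.22 over the whole span, with adjusted p of 0.617, 0.321 and 0.0787. The last of these passed the test without female GD60 replicate 15 (adjusted p = 0.0469) or female GD90 replicate 9 (0.0452), and with the trend on gene length removed (0.00439). Within a library, the count of TREM2 relative to TYROBP had a median ratio of 0.651 at GD45, 1.01 at GD60 and 1.30 at GD90, with ranges of 0.409 to 1.09, 0.792 to 1.38 and 0.955 to 1.45.

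AIF1, the cytosolic protein whose antibody stains microglia, lies on the plus strand of chromosome 7 from base 23711722 to 23731671. It ran from 5.42 over a median of 6.63 to 9.43 CPM at GD45, from 6.15 over 7.14 to 11.3 CPM at GD60, and from 8.12 over 11.12 to 15.2 CPM at GD90. Every pair of days overlapped. The log2 change from GD60 to GD90 was 0.53 ± 0.20 (SE), with an adjusted p of 0.0446, and that from GD45 to GD60 was 0.19 ± 0.20, with an adjusted p of 0.578. The later call was lost without any of 10 libraries: GD45 female replicates 12 (adjusted p = 0.0523) and 13 (0.0553), GD60 female replicates 3 (0.0988) and 5 (0.112), GD60 male replicates 4 (0.0888) and 16 (0.0858), GD90 female replicates 2 (0.111) and 9 (0.0714), and GD90 male replicates 8 (0.0765) and 10 (0.101).

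The 3 genes of C1q rose from GD60 to GD90, with a wide spread at GD90, and did not pass the test from GD45 to GD60. C1QA, from base 80586280 to 80589939, ran from 10.8 over a median of 15.6 to 19.2 CPM at GD45, from 13.9 over 15.6 to 17.9 CPM at GD60, and from 17.2 over 23.5 to 35.2 CPM at GD90. C1QC, from base 80592478 to 80597459, ran from 15.4 over 20.5 to 25.9, from 16.8 over 19.7 to 22.5, and from 20.9 over 32.2 to 43.8 CPM. C1QB, from base 80601665 to 80607471, ran from 27.3 over 31.8 to 39.2, from 27.5 over 30.9 to 38.3, and from 31.9 over 43.7 to 63.7 CPM. In each gene the GD90 libraries overlapped those of GD60, and the highest value was that of GD90 female replicate 2.

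From GD60 to GD90 the log2 change was 0.62 ± 0.16 (SE) for C1QA, with an adjusted p of 0.00428. It was 0.67 ± 0.17 for C1QC, with an adjusted p of 0.00511, and 0.47 ± 0.17 for C1QB, with an adjusted p of 0.0323. From GD45 to GD60 the log2 change of the 3 genes lay between -0.04 and 0.04, with adjusted p from 0.898 to 0.931. The later call of C1QB was lost without female GD60 replicate 3 (adjusted p = 0.0771), female GD60 replicate 5 (0.0780), male GD60 replicate 4 (0.0803), male GD60 replicate 6 (0.0584), female GD90 replicate 2 (0.114) or male GD90 replicate 1 (0.0865). Over the whole span C1QB changed by 0.44 ± 0.17 (adjusted p = 0.0330), and that call was lost without female GD45 replicate 13 (0.0531), female GD45 replicate 18 (0.0849), male GD45 replicate 11 (0.0777), male GD45 replicate 14 (0.0802), female GD90 replicate 2 (0.120) or male GD90 replicate 1 (0.0877).

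The C1q genes kept close to each other from library to library. The count ratio of C1QA to C1QB lay between 0.531 and 0.552 in the 6 GD90 libraries, and between 0.395 and 0.574 at GD45. That of C1QC to C1QB lay between 0.656 and 0.767 at GD90. The first exon of C1QA, of 580 bases, held 4 counts over all libraries and that of C1QC, of 376 bases, held 2, where the exons after them held 220 and 193 counts at GD45 alone. Few of the counts by exon therefore lay at the annotated starts of C1QA and C1QC, beside which the windows printed above lie. These counts made 86.5% of the gene-level counts of C1QA and 93.7% of those of C1QC. Where the remaining reads lay was not tested.

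Set against CSF1R in the same library, a ratio in which the library total cancels, the members had different courses. C1QB had 0.979 counts per CSF1R count at the median of GD45, 0.765 at GD60 and 0.506 at GD90, and its GD90 range of 0.427 to 0.779 lay below the GD45 range of 0.798 to 1.08. C1QA had medians of 0.444, 0.375 and 0.272, with GD45 from 0.415 to 0.509 and GD90 from 0.228 to 0.430, so these ranges met in 1 library. C1QC had medians of 0.573, 0.469 and 0.374, and its ranges of 0.507 to 0.715 and 0.294 to 0.535 also overlapped. AIF1 and TYROBP had medians of 0.197 and 0.126 at GD45 and of 0.136 and 0.0673 at GD90. CX3CR1 had 0.111, 0.163 and 0.175, and its GD90 values of 0.158 to 0.207 lay above those of GD45, which ended at 0.157. P2RY12 had medians of 0.108, 0.103 and 0.115, TREM2 of 0.0725, 0.120 and 0.0830, and IL34 of 0.203, 0.175 and 0.442. The differences between these ratios were described by their ranges and were not tested.

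**Figure D4:**
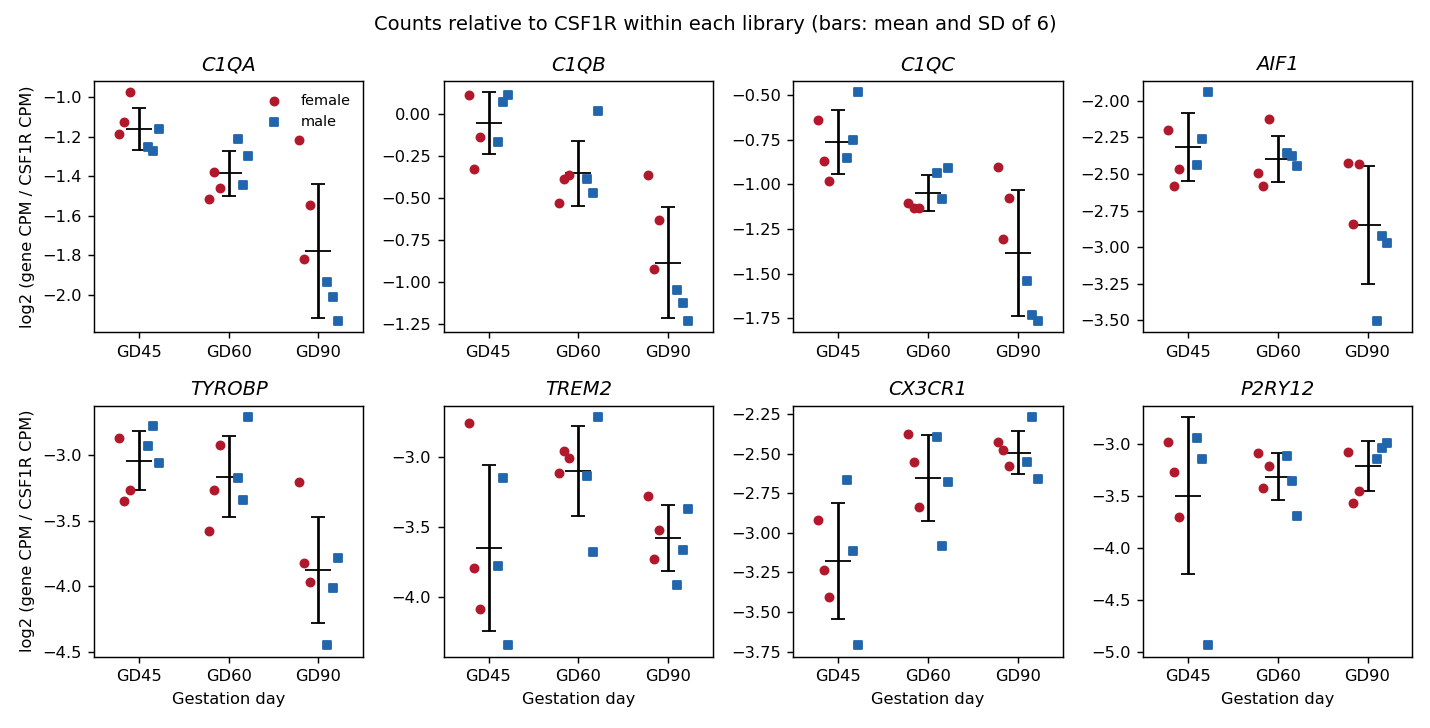
Log2 ratio of the CPM of each gene to that of CSF1R within a library (y axis) by gestation day, females as circles and males as squares, with the mean and SD of the 6 libraries of a day. The medians of the C1q genes, AIF1 and TYROBP are lowest at GD90, and the female ratios of the C1q genes lie above the male ones on that day.

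Per kilobase of gene length, on which levels of different genes can be compared, the order of the members changed with age. At GD45 the highest levels were those of C1QC (14.4 ± 2.98 CPM per kilobase, SD, n = 6) and C1QB (11.8 ± 1.77), which overlapped each other and lay above all others. TYROBP, CSF1R and C1QA followed at 6.96, 6.95 and 6.94, then AIF1 at 4.76, and these 4 overlapped each neighbour among themselves, but TYROBP did not overlap C1QB above it, nor AIF1 CX3CR1 below it. CX3CR1, IL34, TREM2 and P2RY12 were lowest, at 1.63, 1.12, 0.958 and 0.585. At GD90 CSF1R (16.4 ± 1.68) stood between C1QC (22.4 ± 5.63) and C1QB (16.1 ± 3.97), and IL34 (6.09 ± 0.94) and CX3CR1 (6.03 ± 0.52) had reached the range of AIF1 (7.86 ± 1.83). TREM2 and P2RY12 remained lowest, at 2.27 ± 0.42 and 1.57 ± 0.31. These lengths are those of all annotated exons together, which can exceed the transcript that is used.

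Both sexes showed the late rise, but fewer members passed the test in either sex alone. In females 1 member, CX3CR1, rose from GD45 to GD60 (adjusted p = 0.0357), where 4.34% of all genes rose, and in males none did, where 3.08% rose. At an unadjusted p under 0.05 in either direction there were 1 and 2 members in this period, where 3500 and 2960 of all 16325 genes were. The members' share was thus below that of all genes in females and near it in males. From GD60 to GD90, 6 members rose in females (CSF1R, CX3CR1, C1QA, C1QB, C1QC and IL34), where 13.7% of all genes rose, and 4 rose in males (CSF1R, CX3CR1, P2RY12 and IL34), where 18.5% rose. The call of CX3CR1 in females was lost without any of the 6 female libraries compared or male GD90 replicate 8, and without male GD45 replicate 11 a single member passed in males.

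No member passed the test between the sexes on any day, where 0.0919% of all genes passed at GD45, 0.098% at GD60 and 0.098% at GD90. At an unadjusted p under 0.05 there was no member at GD45 or GD60 and 4 at GD90, IL34 and the 3 C1q genes, each lower in males. Of all 16325 tested genes, 423 were under that threshold at GD45, 784 at GD60 and 2213 at GD90, so the number was higher at GD90 among genes at large too. The 3 C1q genes varied together within days, with correlations of 0.862 to 0.942, so they were not separate results. The 3 female and then the 3 male GD90 values of C1QC were 43.8, 32.8, 34.5 and 31.6, 20.9, 25.2 CPM, which did not overlap. Those of C1QA were 35.2, 23.0, 25.0 and 24.1, 17.2, 19.5 CPM, and those of C1QB were 63.7, 42.8, 47.1 and 44.6, 31.9, 36.5 CPM, with 1 male above the lowest female in each. In all 3 genes the female was higher than the male of the same litter size.

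IL34 had 39.0, 39.6 and 41.4 CPM in females and 32.6, 26.6 and 34.9 CPM in males at GD90, and AIF1 had 15.2, 11.3 and 13.5 CPM in females and 8.12, 9.17 and 10.9 CPM in males, without overlap in either. The log2 difference, male over female, was -0.58 ± 0.25 (SE) for C1QC, -0.52 ± 0.22 for C1QA, -0.51 ± 0.24 for C1QB, -0.41 ± 0.18 for IL34 and -0.57 ± 0.28 for AIF1. The adjusted p of these genes in edgeR's test lay between 0.350 and 0.378. CSF1R had 81.8, 81.1 and 73.0 CPM in females and 92.0, 69.4 and 85.6 CPM in males, a log2 difference of 0.01 ± 0.19 whose sign changed with the alternatives. The sex by day term for GD60 to GD90 passed for no member, as for 0% of all genes, and was -0.64 ± 0.26 for IL34 (unadjusted p = 0.0249, adjusted p = 0.222) and between -0.70 and -0.62 for the C1q genes. That for GD45 to GD60 passed for no member and for 0% of all genes.

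The C1q values of GD90 relative to CSF1R did not overlap between the sexes, a difference that was not tested. The share of all genes whose values did not overlap between the sexes was not measured, for these ratios or for the CPM values above. The 3 C1q genes varied together and are not separate results here either. C1QC had 0.535, 0.405 and 0.473 counts per CSF1R count in females and 0.344, 0.301 and 0.294 in males. C1QB had 0.779, 0.528 and 0.646 in females and 0.485, 0.459 and 0.427 in males. C1QA had 0.430, 0.283 and 0.343 in females and 0.262, 0.247 and 0.228 in males. On the same day the summed levels of several marker lists of other cell types also separated the sexes. Males were higher for perivascular and meningeal macrophages (33.6 to 38.7 CPM in females, 44.3 to 49.2 CPM in males), for monocytes and neutrophils (78.8 to 89.7 and 123 to 133 CPM), for platelets (50.4 to 61.1 and 65.5 to 79.1 CPM) and for meninges and fibroblasts (1092 to 1191 and 1246 to 1474 CPM). They were also higher for the list of microglia markers that holds P2RY12 and no C1q gene (53.9 to 59.3 and 63.3 to 67.7 CPM), and lower for neurons (7789 to 8970 and 7087 to 7548 CPM). Single genes carried several of these sums: ITGA2B made 49.9 and 66.6 CPM of the platelet sum in females and males, VCAN 74.7 and 118 CPM of that of monocytes and neutrophils, and SALL1 26.4 and 32.1 CPM of that of microglia (means, n = 3 each). The other 4 of the 10 lists overlapped between the sexes. No tested gene of any of the 10 lists passed the test between the sexes at GD90, where 0.098% of all genes passed. The median log2 difference of the tested genes, male over female, was -0.001 for perivascular and meningeal macrophages, -0.079 for monocytes and neutrophils and 0.012 for platelets. It was 0.08 for meninges and fibroblasts, 0.15 for microglia and -0.167 for neurons, against 0.011 over all genes. The part of these cell types in the result was not tested.

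**Figure D5:**
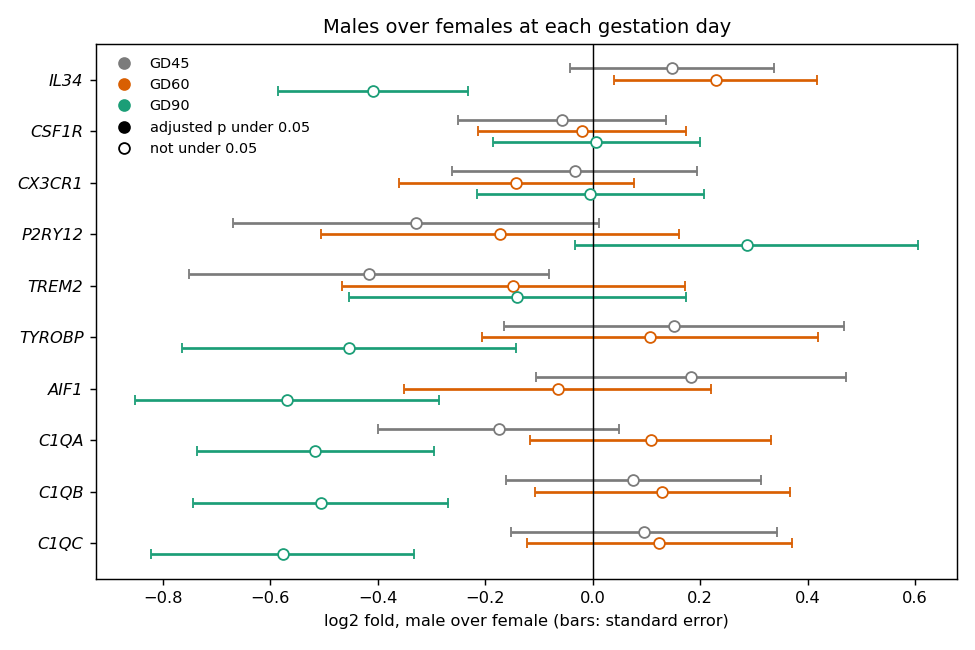
Log2 fold of each gene, males over females (x axis), with its standard error at GD45 in grey, GD60 in orange and GD90 in green. No point had an adjusted p under 0.05, and at GD90 IL34, AIF1 and the C1q genes lie between -0.58 and -0.41 while CSF1R lies at 0.01.

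Across the 18 libraries the members varied together to different degrees. The Pearson correlations of log2 CPM, which share the trend with age, were 0.948 for C1QA with C1QC, 0.956 for C1QB with C1QC and 0.913 for CSF1R with CX3CR1. Taken as deviations from the mean of each day, they were 0.898 and 0.942 for the C1q pairs, 0.842 for AIF1 with C1QC, 0.806 for TYROBP with C1QB and 0.745 for CSF1R with C1QC. CX3CR1 and P2RY12 had 0.655 with each other on this scale, but 0.238 and -0.106 with C1QC. All values of a library share its depth and its tissue, and the correlations are given as a description.

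Among 12192 genes with a symbol and a mean of at least 1 CPM, the genes most like a member over the 18 libraries were often outside the microglia lists. CX3CR1 was most like GFAP (r = 0.988), which encodes the intermediate filament of astrocytes, COCH (0.987) and HEPACAM (0.980). IL34 was most like TMEM125 and ITM2C (0.982 each) and TPPP (0.978), and CSF1R was most like CDK18 (0.976), AARS1 (0.963) and SLC5A11 (0.963). C1QA was most like C1QC (0.948), and C1QC was most like LGALS1 (0.969), the gene of galectin 1. P2RY12 was most like CAV2 (0.953), AIF1 like ATP6V1D (0.954), C1QB like AVPI1 (0.974), TREM2 like NPY5R (0.925) and TYROBP like UBE2QL1 (0.898). All of these genes share the trend with age.

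Other genes of the same pathways were taken from fixed lists, whose counts stand against 21.4% of all tested genes that rose and 20.9% that fell from GD60 to GD90, and 9.35% that rose and 7.37% that fell from GD45 to GD60. Of 11 genes for ligands, receptors and transcription factors of myeloid cells, 9 were in the file and tested, and 3 rose and none fell from GD60 to GD90, with a median log2 change of 0.23, a share of risen genes not far from that of all genes. IRF8, a transcription factor that microglia need, rose from 7.19 ± 1.01 to 11.8 ± 1.83 CPM (SD, n = 6 each), a log2 change of 0.75 ± 0.16 (SE) with an adjusted p of 0.00112. CSF2RB, the shared chain of the receptors for GM-CSF and IL3, changed by 0.57 (adjusted p = 0.0807) and TAL1, a factor of blood cell progenitors, by -0.50 (adjusted p = 0.0723), neither of which passed. SPI1, the gene of PU.1, had 21.2 ± 3.05 CPM at GD60 and 24.3 ± 4.48 at GD90 and did not pass (adjusted p = 0.228).

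Of 20 other microglia surface and lysosome genes, 17 were in the file and 15 were tested, of which 8 rose and 1 fell from GD60 to GD90, with a median log2 change of 0.54. PTPRC (CD45), the phosphatase on all white blood cells, rose by 1.04 ± 0.26 on the log2 scale (adjusted p = 0.00393), and CD86, a costimulatory protein, by 0.99 ± 0.37 (adjusted p = 0.0394), from 0.531 ± 0.224 to 1.04 ± 0.157 CPM (SD, n = 6 each). SLC2A5, the fructose transporter, fell by 1.07 ± 0.16 (adjusted p = 5.96e-05), and the lysosomal protease CTSS had a change of -0.21 (adjusted p = 0.280). From GD45 to GD60 this list had no gene that rose and 1 of 15 that fell, which is near the share of all genes.

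Of 11 genes of TREM2 and TYROBP signalling, 9 were in the file and 8 were tested, and 6 rose and 1 fell from GD60 to GD90, with a median log2 change of 1.07. LPL, lipoprotein lipase, had 2.34 ± 0.88 CPM at GD60 and 17.9 ± 2.03 at GD90 (SD, n = 6 each), a log2 change of 3.00 ± 0.22 (SE) with an adjusted p of 1.99e-08. GPNMB, a glycoprotein of phagocytes and pigment cells, passed (log2 change 1.87 ± 0.57, adjusted p = 0.0142), but its GD90 values ran from 2.58 over a median of 3.70 to 25.9 CPM and overlapped those of GD60. SPP1, osteopontin, fell by 0.99 ± 0.14 (adjusted p = 3.34e-05), from 241 ± 25.4 to 119 ± 17.7 CPM. GRN, progranulin, changed by 0.11 (adjusted p = 0.504). LPL, APOE and SPP1 are also made by brain cells other than microglia.

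Of 16 other complement genes, 10 were in the file and 9 were tested, and 4 rose and 2 fell from GD60 to GD90. CFB, complement factor B, rose by 1.64 ± 0.30 (adjusted p = 0.000293) and C3AR1, the receptor of the C3a fragment, by 1.53 ± 0.49 (adjusted p = 0.0194). C3, the central protein of the cascade, had 8.26 ± 1.06, 14.8 ± 1.54 and 29.2 ± 4.47 CPM at GD45, GD60 and GD90 (SD, n = 6 each) and rose in both periods, by 0.85 and 1.01 on the log2 scale (adjusted p = 3.45e-05 and 7.69e-07). SERPING1, the inhibitor of C1, fell by 0.54 ± 0.12 (adjusted p = 0.00200) and C5 by 0.75 ± 0.21 (adjusted p = 0.00726). The proteases C1R and C1S were not analysed here.

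Of 5 cues for microglial growth and migration, 4 rose from GD60 to GD90. CXCL14 rose by 1.55 ± 0.14 on the log2 scale (adjusted p = 2.73e-07), CCL2 by 1.26 ± 0.27 (0.00109), CXCL12 by 0.41 ± 0.09 (0.00113) and TGFB1 by 0.30 ± 0.09 (0.0157), and TGFB2 changed by 0.54 ± 0.28 (0.126). From GD45 to GD60 CXCL14 rose by 1.05 (adjusted p = 9.68e-05) and CXCL12 fell by 0.31 (0.0204).

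Markers of the cell types a whole brain could hold were measured beside the members. The counts of each marker list for GD60 to GD90, platelets included, stand against 21.4% of all tested genes that rose and 20.9% that fell. Of 11 genes that microglia share with other brain macrophages, 8 are members. From GD60 to GD90, 7 of the 11 rose and none fell. The 7 were the members CSF1R, CX3CR1, AIF1, C1QA, C1QB and C1QC, reported above, and PTPRC. The summed level of the 11 was 122 to 169 CPM at GD45, 148 to 188 CPM at GD60 and 203 to 318 CPM at GD90. Both the count and the sum therefore largely repeat the rise of the members. Of 6 genes more particular to microglia, 5 were in the file and 4 were tested. From GD60 to GD90, 3 of the 4 rose, P2RY12 and GPR34 among them, and none fell. SALL1 changed by -0.04 (adjusted p = 0.753), and P2RY13 had 24 counts in all and was at 0 in 8 libraries. From GD45 to GD60, none of the 4 rose and 1 fell, where 9.35% of all tested genes rose and 7.37% fell. The summed level of the 5 was 38.7 to 68.3 CPM at GD45, 43.9 to 58.0 CPM at GD60 and 53.9 to 67.7 CPM at GD90, so the days overlapped. Of this sum SALL1 made 40.2 ± 6.23, 30.6 ± 2.90 and 29.2 ± 3.33 CPM (SD, n = 6 each). The cells that made SALL1 in these whole brains were not identified, so the sum cannot be read as that of microglia alone. TMEM119 was not analysed here. The brains held transcripts of the defining microglia genes at every day, though P2RY13 was near 0.

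The 8 genes of perivascular and meningeal macrophages had a summed level of 29.9 to 47.8 CPM at GD60 and 33.6 to 49.2 CPM at GD90. Of these 8, 3 rose in that period and none fell, where 21.4% of all tested genes rose and 20.9% fell. MS4A7 rose by 1.36 on the log2 scale (adjusted p = 0.00585), F13A1 by 0.51 (0.0477) and MRC1, the mannose receptor, by 0.50 (0.0488). All 8 were above 0 in every library, and the part of these cells in the results was not tested.

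In the lists of white and red blood cells no tested gene rose from GD60 to GD90. Of 9 genes of monocytes and neutrophils, 7 were in the file and 3 were tested. VCAN, which other brain cells also make, fell by 1.06 on the log2 scale (adjusted p = 1.60e-06), and the summed level, most of it VCAN, was 179 to 263 CPM at GD60 and 78.8 to 133 CPM at GD90. S100A12 was at 0 in 5 libraries and MPO had 32 counts in all. Of 9 genes of T, B and NK cells, 4 were tested and 1, CD79A, fell, with a summed level of 7.33 to 10.4 CPM at GD60 and 6.16 to 8.74 CPM at GD90. CD3G was at 0 in all 18 libraries and MS4A1 in 16. Of 10 erythroid genes, 7 were in the file and 6 were tested, of which 3 fell and none rose, and the sum, most of it HBB, was 162 to 308 CPM at GD60 and 95.2 to 174 CPM at GD90.

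Among the resident cells, 3 of 5 neuronal genes rose from GD60 to GD90, SYT1 by 1.23, SNAP25 by 1.14 and RBFOX3 by 0.71 on the log2 scale (adjusted p = 5.55e-07, 5.54e-08 and 0.000314), and TUBB3 of young neurons fell by 0.38 (0.0424). The neuronal sum was 6984 to 9439 CPM at GD60 and 7087 to 8970 CPM at GD90. SYT1 and SNAP25, genes of the synaptic vesicle machinery, rose in the period in which IL34 rose, as did 21.4% of all tested genes. The source of IL34 in these brains was not tested. Of 6 endothelial genes 2 rose and none fell, with a sum of 365 to 480 CPM at GD60 and 409 to 531 CPM at GD90, and of 5 genes of meninges and fibroblasts 1 rose and 2 fell, with a sum of 1006 to 1366 CPM at GD60 and 1092 to 1474 CPM at GD90. The part of these cell types in the results was not tested.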

How the data were processed

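Messenger RNA was captured with oligo(dT) beads from 18 whole fetal pig brains and sequenced in pairs. Per the study's methods, the authors used FastQC, Trimmomatic, HISAT2 on Sscrofa11.1 and featureCounts with an Ensembl annotation. The strand and multi-mapping settings are not given in the sources used here. The deposited tables hold raw counts per gene and per exon in 22 columns. The 4 libraries with a second run were summed, and no column was left unused.

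CPM is the count scaled to the library total (15118843 to 19729783). Differences were tested with edgeR 4.0.16 (R 4.3.3) by its quasi-likelihood test with TMM scaling, over 16325 genes that passed filterByExpr, in 6 groups of sex and day sharing one spread, with Benjamini-Hochberg adjustment over all of them and a threshold of 0.05. The fit was also run on simulated independent libraries, whose changed genes changed more than any member but IL34 did. That run does not check the fit at smaller changes or with littermates. Standard errors are of log2 changes. Since no record ties replicates to separate dams, p-values cover the spread between fetuses, littermates included. DESeq2 1.42.0, limma 3.58.1 and other settings were tried as alternatives.

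The members and lists were chosen with earlier results of these data known. In pathway lists of up to 5 measured genes all were named, otherwise the 2 lowest and 2 highest log2 changes from GD60 to GD90. SPI1 and C3 lie outside that rule and, like the marker genes named, were chosen after their values were seen. Listed genes without a matching symbol were not analysed here, and 1 marker gene that enters the counts and sums of its lists is not reported here by itself.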

Additional observations from a re-analysis of the deposited data

Results flagged for a closer look

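The TREM2 level of female GD45 replicate 12 was 5.15 CPM, where the nearest of the other 5 libraries of that day had 3.01 CPM. The gap was 0.634 of the whole range, past the critical value of Dixon's test for 6 samples. It was the only one among 30 groups of 6 libraries (10 genes on 3 days), and chance marks about 1 group in 20. Without this library the log2 change of TREM2 from GD60 to GD90 passed the test, with an adjusted p of 0.0412 in edgeR's fit.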

How the results depend on the processing

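The counts of members that rose from GD60 to GD90 stayed within 1.5 times of 8 over both sexes (6 to 9), of 6 in females (5 to 8) and of 4 in males (3 to 5) under the alternatives, and ran from 6 to 9, 5 to 9 and 4 to 4 without single libraries. No alternative called a member between the sexes or for the sex by day terms. From GD45 to GD60, 1 member in place of 2 passed with the exon table summed per gene, with only the libraries compared, with littermates summed and without the GD45 litter of 8, a setting chosen after seeing the data, and 1 to 3 passed without single libraries. In females 0 in place of 1 passed in that period without TMM factors, without the filter on low counts, with the exon table and with only the libraries compared, and 0 to 1 without single libraries. In males 1 in place of 0 passed with DESeq2, and 0 to 1 without single libraries. Over the whole span 5 in place of 9 passed with the exon table, which holds 0.283% of the gene-level counts of C1QB, 1.38% of TYROBP, 1.93% of TREM2, 2.96% of P2RY12, 22.4% of AIF1 and 35.7% of CSF1R and so is a weak check for these genes, and 8 to 10 without single libraries.

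Some small changes turned their direction. From GD45 to GD60 the log2 change of AIF1 was -0.17 in the exon table. That of C1QB was 0.003 with the trend on gene length removed and 0.057 without the litter of 8. That of C1QC was 0.062, 0.003 and 0.051 with the length trend removed, with litter as a replicate block and without the litter of 8. Without single libraries these changes ran from -0.017 to 0.287 for TYROBP, -0.059 to 0.15 for C1QA, -0.141 to 0.102 for C1QB, -0.144 to 0.122 for C1QC and -0.018 to 0.157 for IL34. The difference of CSF1R between the sexes at GD90 was -0.005 with DESeq2, -0.012 without the filter and -0.077 with the length trend removed, and -0.079 to 0.097 without single libraries. The cause was not tested. TREM2 lost its call from GD45 to GD60 with only the libraries compared and with littermates summed, and passed from GD60 to GD90 with only the libraries compared.

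IL34 levels on exons outside MTSS2 were 2.79, 2.86 and 16.7 CPM on the 3 days. Fetuses of one day and litter size deviated together with correlations of -0.093 to 0.424 over 9 pairs, and a block by litter had a consensus correlation of 0.104. The main fit did not take the pairs into account, and these values do not show that fetuses of a pair were independent. With litter as a replicate block 2, 8 and 9 members rose over both sexes in the 3 comparisons of days, the same counts as without it, and 8 in place of 6 in females from GD60 to GD90.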
